A study of Homo sapiens with 6 samples.

Results

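Collagens were the genes examined, taken as every probe set annotated to a single gene whose symbol has the form of a collagen chain, such as COL1A1. Of 22215 probe sets tested, 73 met this rule, and they represented 32 collagen genes of the 11963 genes named on the array. The 32 chains fell into classes by the structure they build, with 9 fibrillar, 6 basement membrane, 3 network, 7 fibril-associated (FACIT), 3 beaded-filament and 4 other chains. A further 12 chains of these classes were not analysed here, among them COL12A1 and COL17A1.

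A collagen is built from chains that wind into a helix of 3, secreted as a precursor and assembled outside the cell. Fibrillar collagens form the tension-bearing fibres of connective tissue, and fibroblasts are their main source. Type IV collagen forms the sheet-like basement membrane, type VIII and type X form hexagonal networks, FACIT collagens decorate the surface of fibrils, and type VI forms beaded microfilaments close to the cell. Loss of fibrillar collagen synthesis and gain of collagenases are known features of many senescent fibroblasts.

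Of the 6 samples, 3 were growing WI-38 fibroblasts of wild type genotype, and 3 were WI-38 fibroblasts with overexpressed RASv12, labelled as senescent. WI-38 is a diploid fibroblast strain from human fetal lung, and RASv12 is an active mutant form of the RAS GTPase whose gene of origin the labels do not give. Culture took place in 3% oxygen for all samples, as did retroviral transfer where it was done. Whether an empty vector went into the controls and for how long RASv12 was expressed is not given in the labels. Separate cultures are not named for the replicates either, and a p-value here therefore reflects the scatter among 3 samples a group, part or all of which could be technical. The labels give Cy5 for control and Cy3 for RASv12 samples, but the probe set names are those of an Affymetrix array that reads a single colour, so whether these dyes were used is doubtful. If they were, dye and group cannot be told apart.

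Each sample was read on 1 array with a signal intensity for each probe set. The highest intensity of 27 low bacterial control probe sets was 27.98, and an array had 48.6% to 54.1% of its probe sets above it. Intensities at or under that level are called dim here. Arrays of the same group correlated at 0.975 to 0.987 (log2 scale, across probe sets) and arrays of different groups at 0.912 to 0.928. HRAS, whose signal was read as a check of the labels, had a mean intensity of 215 ± 23.0 in control and 853 ± 123 in RASv12 cells (SD, n = 3). Of 8 fibroblast markers, of which DCN, LUM and FAP also stand in the collagen lists used below, all were above the dim level on at least 1 array and 6 fell, where 15.3% of all genes fell. The summed intensity of these markers ran from 10707 to 12112 in control and from 5844 to 6801 in RASv12 cells. The endothelial markers summed to 29.9 to 37.1 in control and 31.1 to 70.8 in RASv12 cells, and the leukocyte markers to 7.30 to 29.2 and 18.3 to 50.4, with 3 of 4 measured members dim on all 6 arrays in each list. Of 5 epithelial markers, EPCAM and CDH1 were dim on all 6 arrays, and the list summed to 182 to 192 in control and 148 to 188 in RASv12 cells. Its keratins went opposite ways, with KRT19 (-1.01) and KRT8 (-0.48) called lower and KRT18 at 0.37 with groups apart (adjusted p = 0.051). The smooth muscle markers MYH11 and DES were dim on all 6 arrays, and ACTA2 carried most of that list's sum of 878 to 996 in control and 329 to 370 in RASv12 cells. In these bulk samples, fewer cells that express a gene and less RNA per cell cannot be told apart.

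Calls and median changes of collagen chains differed from class to class, without a test between classes. Of the 32 chains, 15 fell in RASv12 cells, 2 rose and 15 did not pass an adjusted p of 0.05. Over all genes 15.3% fell and 13.8% rose. The median log2 change of the chains was -0.39, against 0.02 over all genes tested. Falls of at least 1 on the log2 scale, a halving of the signal, were called for 12 chains, and 5.09% of all genes fell by that much. The 2 groups did not overlap for 16 chains lower and 3 chains higher in RASv12 cells, where 22.0% of all genes lay apart with RASv12 lower and 19.7% with RASv12 higher. On 9 of the 32 chains all 6 arrays were dim, among them COL14A1, which was called lower, and COL21A1, which was called higher.

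By class, 6 of 9 fibrillar, 3 of 6 basement membrane, 2 of 7 FACIT, 1 of 3 beaded-filament and 3 of 4 other chains fell. None of the 3 network chains fell and 1 rose, as did 1 FACIT chain. The shares over all genes were 15.3% for falls and 13.8% for rises. Calls of 1 or 2 chains in a class are too few to set apart from these shares. A FACIT fall (COL14A1) and the FACIT rise (COL21A1) were dim on all arrays. The beaded-filament fall (COL6A2) was not called under some alternatives. Class medians on the log2 scale were -1.62 for fibrillar, -0.63 for basement membrane, -0.18 for beaded-filament, -0.06 for FACIT and -0.01 for network chains, and -1.15 for the others. FACIT held 5 chains, basement membrane 2, fibrillar 1 and network 1 that were dim on all arrays, so the class medians also carry how many chains gave no signal above the dim level. No test compared the classes with each other. Hybridization control probe sets were lower on RASv12 arrays, by 0.34 on average on the log2 scale, and 18 of 18 were lower. When arrays were instead scaled to these controls, the median change of all genes went from 0.02 to 0.20 and the collagen calls became 14 falls and 4 rises. Of all genes called, 72.9% were rises with that scaling and 47.3% without it. It also put the medians of beaded-filament, network and FACIT chains above 0, at 0.18, 0.19 and 0.01.

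**Figure D1:**
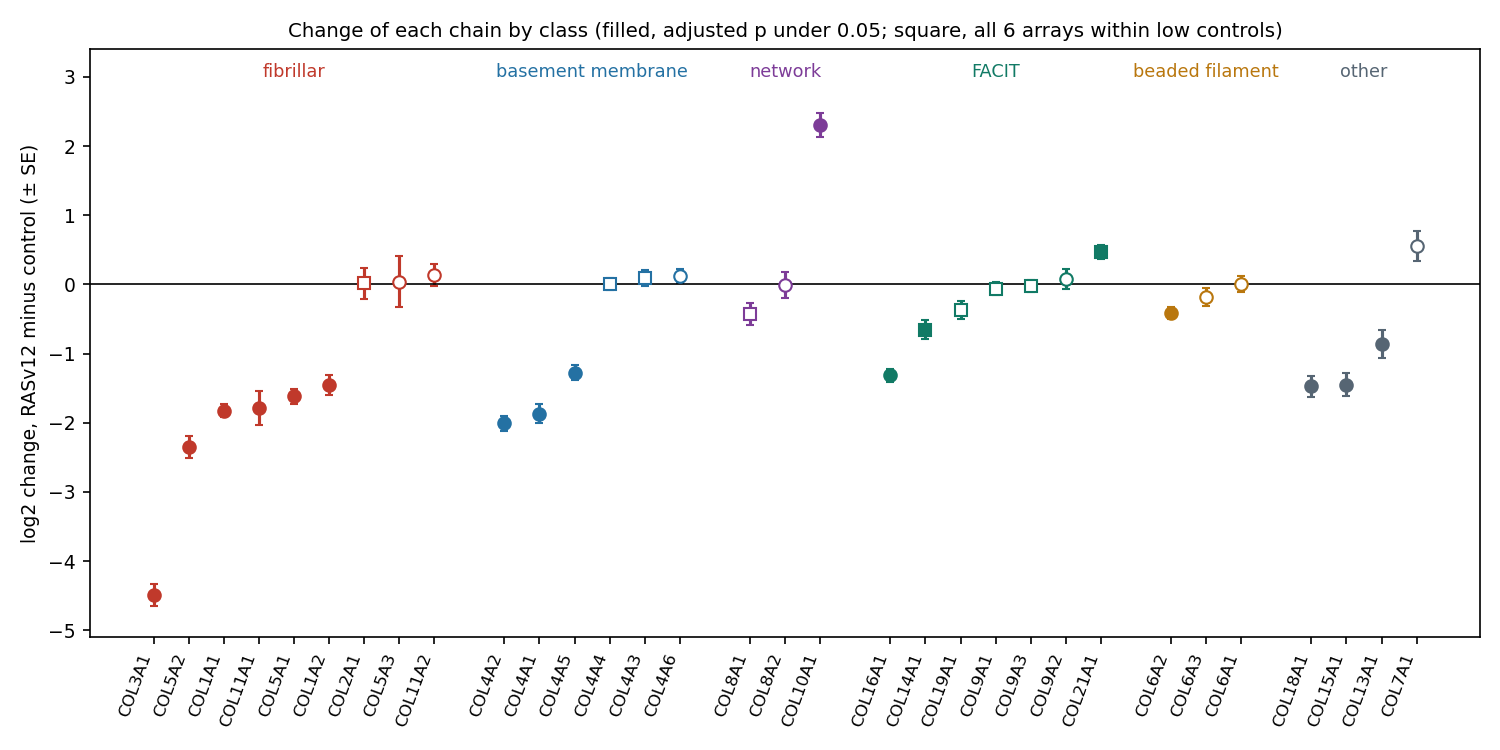
Log2 change of each of the 32 collagen chains (vertical axis, RASv12 minus control, with SE from the limma fit, 3 samples per group), grouped by class along the horizontal axis. Filled symbols passed an adjusted p of 0.05 and squares were dim on all 6 arrays. Fibrillar chains reach -4.49 (COL3A1), and COL10A1 stands alone at the top at 2.31.

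Of the fibrillar chains, 6 fell. COL3A1, the single chain of type III collagen, which accompanies type I in distensible tissues such as lung, had intensities of 1367, 1581 and 1719 in the 3 control samples, listed by replicate number, and 61.8, 56.9 and 43.9 in the RASv12 samples. Every RASv12 value lay far below every control value. Mean intensity was 28.7-fold lower in RASv12 cells, with a log2 change of -4.49 ± 0.16 (SE, adjusted p = 9.6e-06), which ranked 1 among the falls of all 11963 genes. Of its 4 probe sets 3 fell, and the remaining one, 215077_at, was dim on all arrays and did not pass (-0.14).

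Type I collagen, the main fibre of skin, bone, tendon and scar, is made of COL1A1 and COL1A2 chains. COL1A1 had intensities of 3886, 3639 and 4167 in control and 1063, 1136 and 1073 in RASv12 cells. Its RASv12 values were tightly grouped at a mean 3.57-fold below control (log2 change -1.83 ± 0.09, adjusted p = 3.1e-05). COL1A2 had 4106, 4738 and 4722 in control and 1830, 1858 and 1292 in RASv12 cells, a mean 2.72-fold lower (-1.45 ± 0.14, adjusted p = 4.4e-04). The groups of neither chain overlapped. For both chains another probe set fell further, at -2.64 for COL1A1 (202311_s_at) and -2.48 for COL1A2 (202404_s_at).

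Type V collagen sits inside type I fibrils, where it starts fibril formation and limits their width. Its chain COL5A2 had 975, 744 and 934 in control and 142, 195 and 148 in RASv12 cells. This was a mean 5.47-fold lower signal, with a change of -2.35 ± 0.16 (adjusted p = 1.0e-04). COL5A1 had 316, 273 and 299 in control and 78.4, 93.9 and 81.8 in RASv12 cells, a mean 3.49-fold lower (-1.62 ± 0.11, adjusted p = 9.3e-05). All 3 probe sets of COL5A1 and both of COL5A2 fell, and no groups overlapped. COL5A3, the third chain of the family, had values from 23.1 to 46.0 in control and from 14.6 to 71.0 in RASv12 cells, which overlapped (0.04 ± 0.37, adjusted p = 0.95).

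COL11A1, a type XI chain best known from cartilage fibrils, had 147, 119 and 135 in control and 36.3, 31.3 and 15.6 in RASv12 cells. The lowest of these was dim, and the groups lay apart (-1.78 ± 0.24, adjusted p = 0.0021). Its partner COL11A2 overlapped between groups, from 54.3 to 77.2 in control and from 50.8 to 79.8 in RASv12 cells (0.13 ± 0.16, adjusted p = 0.60). COL2A1, the main cartilage fibril chain, was dim on all 6 arrays in both of its probe sets.

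**Figure D2:**
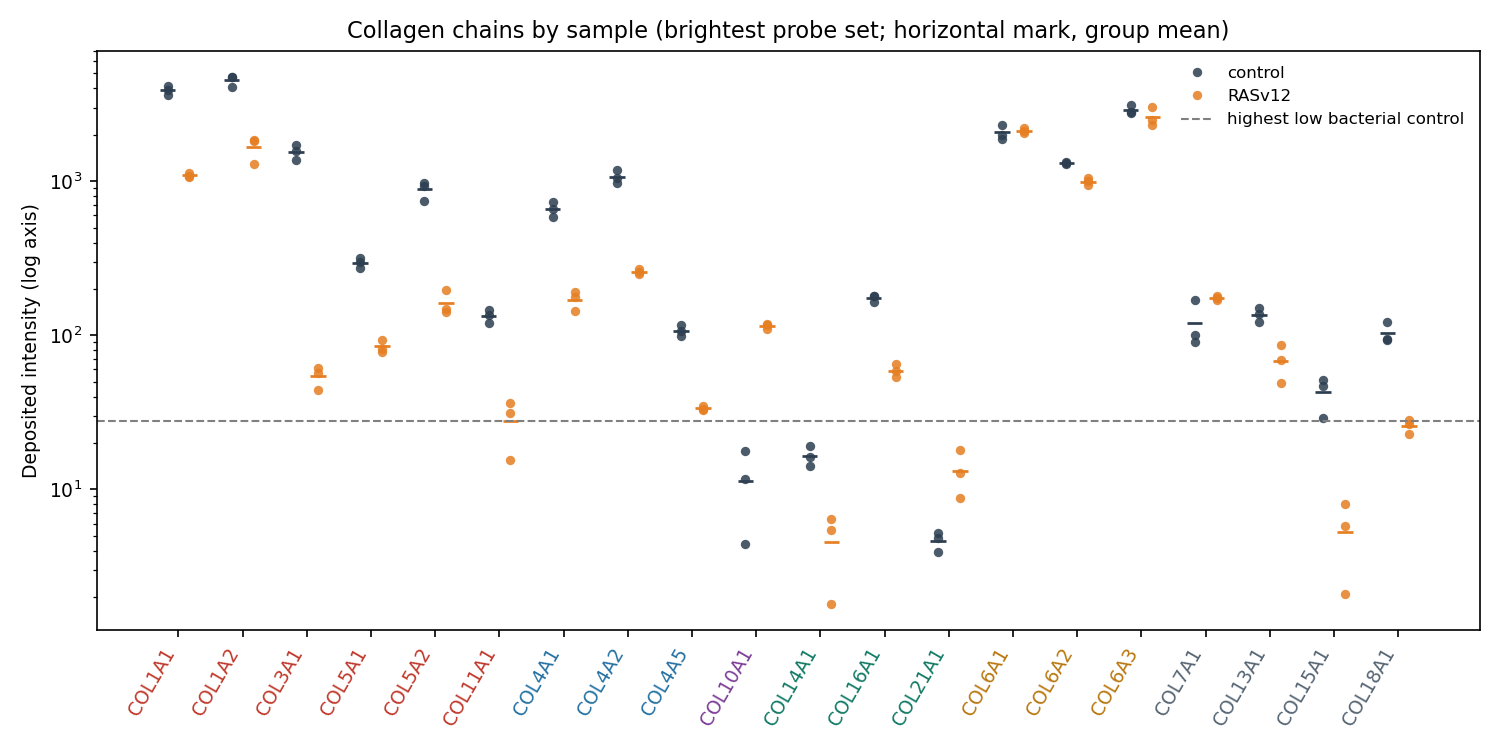
Deposited intensity (vertical log axis) in each of the 6 samples for the 17 called chains and for COL6A1, COL6A3 and COL7A1, with 1 point per sample and a bar at the group mean. Names are coloured by class, and the dashed line at 27.98 is the highest low bacterial control. COL3A1 drops from 1367 or more to 61.8 or less, whereas the type VI chains COL6A1 and COL6A3 overlap between groups.

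Of the basement membrane chains 3 fell, and the other 3 had values at or near the dim level. COL4A1 and COL4A2 are the chains of the type IV collagen found in nearly all basement membranes. COL4A2 had intensities of 978, 1055 and 1175 in control and 249, 256 and 270 in RASv12 cells, a mean 4.14-fold lower (-2.01 ± 0.10, adjusted p = 3.2e-05). COL4A1 had 659, 585 and 729 in control and 177, 190 and 143 in RASv12 cells, a mean 3.87-fold lower (-1.87 ± 0.14, adjusted p = 1.5e-04). Groups lay apart for both, and both probe sets of each chain fell. COL4A5, a chain of the glomerular and skin basement membranes, had 116, 106 and 99.2 in control and 32.5, 35.0 and 33.1 in RASv12 cells (-1.28 ± 0.11, adjusted p = 2.3e-04). COL4A3 and COL4A4, the further glomerular chains, were dim on every array, COL4A3 in all 7 of its probe sets. COL4A6 overlapped between groups, at 24.98 to 34.3 in control and 29.5 to 39.0 in RASv12 cells (0.13 ± 0.10, adjusted p = 0.42).

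COL4A1 and COL4A2 are transcribed away from each other from a shared short promoter, and as they fell by like amounts the 126 bases between their RefSeq starts are shown (GRCh38.p14, chr13:110307158-110307283, plus strand, with COL4A1 to the left and COL4A2 to the right). Capitals mark matches to CCAAT, the box bound by NF-Y, and to GGGCGG, the GC box bound by SP1 family factors, searched on both strands together with TATAAA and the AP-1 site TGACTCA.
COL4A1-COL4A2: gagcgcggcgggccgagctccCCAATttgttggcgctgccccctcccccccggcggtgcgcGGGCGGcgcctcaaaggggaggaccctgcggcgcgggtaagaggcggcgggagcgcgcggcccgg
The segment held 1 CCAAT, 1 GGGCGG, no TATAAA and no TGACTCA, with 80.2% G and C. A match is a description of letters and not evidence of binding. The segment was chosen after the falls were seen. COL4A5 and COL4A6 are also transcribed away from each other, and the bases before a start of each overlap (chrX:108439588-108439837 and chrX:108439459-108439708). Of these, COL4A5 fell (-1.28) and COL4A6 did not pass (0.13). COL4A3 and COL4A4 lie in the same way and were dim on every array. Whether sharing a promoter bears on these changes was not tested.

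Among network collagens, a single chain went up. COL10A1, the type X collagen that hypertrophic cartilage makes before it turns to bone, had intensities of 17.7, 11.7 and 4.41 in control and 119, 116 and 110 in RASv12 cells. All 3 control values were dim and all 3 RASv12 values were above that level and close to each other. Counted against the dim level on the deposited scale, RASv12 cells had at least a 4.11-fold higher signal, and the log2 change was 2.31 ± 0.17 (adjusted p = 1.6e-04). Its other probe set, 217428_s_at, gave 5.05, 5.61 and 2.36 in control and 103, 109 and 104 in RASv12 cells (2.60 ± 0.10). With pseudocounts of 1 and 64 the change of the first probe set was 3.42 and 1.26, since the control values are dim. The vascular and corneal type VIII chains did not pass on their brighter probe sets. COL8A1 was dim on all arrays, although its groups did not overlap (-0.43, adjusted p = 0.084), and COL8A2 ran from 22.9 to 39.0 in control and 19.5 to 45.0 in RASv12 cells. The dimmer COL8A2 probe set, 221900_at, was dim on all arrays and called lower (-0.70, adjusted p = 0.023). That call ended with a pseudocount of 1 (adjusted p = 0.054) and without control replicate 2 (0.072), control replicate 3 (0.080) or RASv12 replicate 3 (0.063), and the difference between the probe sets was not tested.

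The bases before the starts of COL10A1, as a chain that rose, are shown beside those of COL11A1 and COL16A1, which fell (RefSeq, GRCh38.p14, minus strand, the 250 bases before each start, written 5′ to 3′ along the gene). The table gives 3 starts for COL10A1, and the 2 that held a TATAAA are printed, at chr6:116126133-116126382 and chr6:116158773-116159022. The windows of COL11A1 and COL16A1 lie at chr1:103108523-103108772 and chr1:31704018-31704267. Capitals mark the same motifs on either strand.
COL10A1 start a: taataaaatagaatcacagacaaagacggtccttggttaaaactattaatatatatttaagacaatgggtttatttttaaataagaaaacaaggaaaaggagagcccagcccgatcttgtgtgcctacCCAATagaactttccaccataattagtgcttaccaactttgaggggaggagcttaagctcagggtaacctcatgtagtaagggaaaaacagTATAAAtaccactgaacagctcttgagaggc
COL10A1 start b: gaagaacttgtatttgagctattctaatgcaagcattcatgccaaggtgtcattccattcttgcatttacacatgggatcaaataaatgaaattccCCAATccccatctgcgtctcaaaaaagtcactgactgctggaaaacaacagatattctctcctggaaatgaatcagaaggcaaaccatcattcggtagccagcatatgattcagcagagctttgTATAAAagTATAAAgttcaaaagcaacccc
COL11A1: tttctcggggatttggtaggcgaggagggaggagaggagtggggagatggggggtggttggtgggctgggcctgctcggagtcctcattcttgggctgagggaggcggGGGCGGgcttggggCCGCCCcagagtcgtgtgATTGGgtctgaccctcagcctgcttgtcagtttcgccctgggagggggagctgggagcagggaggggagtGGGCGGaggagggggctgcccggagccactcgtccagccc
COL16A1: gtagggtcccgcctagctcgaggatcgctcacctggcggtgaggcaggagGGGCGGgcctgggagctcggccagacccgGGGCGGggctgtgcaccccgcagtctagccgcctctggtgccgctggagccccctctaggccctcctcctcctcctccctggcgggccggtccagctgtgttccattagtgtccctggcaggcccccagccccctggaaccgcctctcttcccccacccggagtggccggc
The COL10A1 windows had 37.6% and 39.2% G and C, and those of COL11A1 and COL16A1 68.8% and 73.2%. The median over 35116 RefSeq windows was 58.0%, with quartiles of 46.4% and 68.0%. The third COL10A1 window, at chr6:116217145-116217394, had 32.4% G and C and held none of the motifs. Each of the printed COL10A1 windows held 1 CCAAT. The GC box GGGCGG occurred 3 times before COL11A1, 2 times before COL16A1 and before no COL10A1 start. Over the 34 windows found for 23 of the 32 measured chains, 19 held GGGCGG (42.6% of all windows), 10 held CCAAT (32.0% of all windows), 6 held TATAAA (10.7%) and 0 held TGACTCA (4.20%). Chains without a window included COL1A1, COL1A2, COL3A1, COL5A2 and COL6A1. Several windows belong to the same gene or overlap, and no test was made of these shares. The printed windows were chosen after the calls were seen and do not stand for all chains that rose or fell. COL21A1, which was also called higher but was dim on every array, had windows of 36.0%, 56.8% and 58.0% G and C. They held no TATAAA and 1 GGGCGG. Among chains that fell, COL13A1, COL6A2 and 1 window of COL18A1 held a TATAAA, and COL4A5 and COL13A1 held no GGGCGG.

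FACIT chains were mostly dim. COL16A1, which links fibrils to neighbouring matrix, was the exception. It had 165, 180 and 180 in control and 58.6, 53.2 and 64.8 in RASv12 cells. Its groups lay well apart, with a mean 2.97-fold lower signal in RASv12 cells (-1.31 ± 0.09, adjusted p = 1.3e-04). All 6 arrays were dim for COL14A1, a chain of mature tendon and skin fibrils, and for COL21A1, a FACIT chain of blood vessel walls, so no fold is given for either. COL14A1 had 16.2, 19.0 and 14.2 in control and 5.48, 6.47 and 1.82 in RASv12 cells and was called lower (-0.66 ± 0.14, adjusted p = 0.012). COL21A1 had 5.22, 3.90 and 4.81 in control and 8.79, 12.8 and 17.9 in RASv12 cells and was called higher (0.47 ± 0.10, adjusted p = 0.012). Groups lay apart for both, but the sizes of these changes moved with the pseudocount, from -1.77 to -0.23 for COL14A1 and from 1.25 to 0.16 for COL21A1 with pseudocounts of 1 and 64. The call of COL14A1 ended when its 3 probe sets were averaged (-0.16, adjusted p = 0.42). COL9A1, COL9A3 and COL19A1 were dim on all arrays, COL9A2 lay around the dim level from 19.0 to 38.7, and none of these 4 passed.

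Beaded-filament chains of type VI collagen, which anchors cells to the surrounding matrix, were above the dim level in both groups on the probe sets that stood for them, and 1 of 3 fell. COL6A3 had 2828, 3118 and 2779 in control and 2497, 3022 and 2314 in RASv12 cells, which overlapped (-0.18 ± 0.13, adjusted p = 0.35). Its change was 0.18 when arrays were scaled to the hybridization controls. COL6A2 had 1331, 1321 and 1296 in control and 1044, 940 and 1002 in RASv12 cells, a mean 1.32-fold lower (-0.42 ± 0.09, adjusted p = 0.013). The groups of COL6A2 lay apart on these values, but its call ended with scaling to the hybridization controls (-0.06, adjusted p = 0.67), median centring (adjusted p = 0.062) and a pseudocount of 1 (adjusted p = 0.070). The other COL6A2 probe set, 213290_at, was also called lower with groups apart (-0.36, adjusted p = 0.038), given for the main setting only. COL6A1 had 2318, 1889 and 2002 in control and 2105, 2216 and 2043 in RASv12 cells on its brightest probe set, 213428_s_at, with overlapping groups (0.01 ± 0.11, adjusted p = 0.97).

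Of the 8 probe sets of COL6A1, 3 rose, none fell and 5 did not pass, against 11.3% of all probe sets that rose. Probe set 212940_at went from 42.8, 77.0 and 72.5 in control to 165, 138 and 122 in RASv12 cells, with no overlap (1.03 ± 0.20, adjusted p = 0.011), and 212937_s_at and 212938_at rose by 0.84 and 0.67. A further 3 probe sets of COL6A1 were dim on all arrays. With scaling to the hybridization controls the brightest probe set was also called higher (0.38, adjusted p = 0.045 over genes). The call of 212940_at held when any 1 sample was left out, with changes from 0.83 to 1.16, and those of 212937_s_at and 212938_at did not. With a pseudocount of 1 the latter calls also ended (adjusted p = 0.066 and 0.0905), as they did with the replicate block (0.051 and 0.096). Which part of the transcript each probe set reads was not tested.

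**Figure D3:**
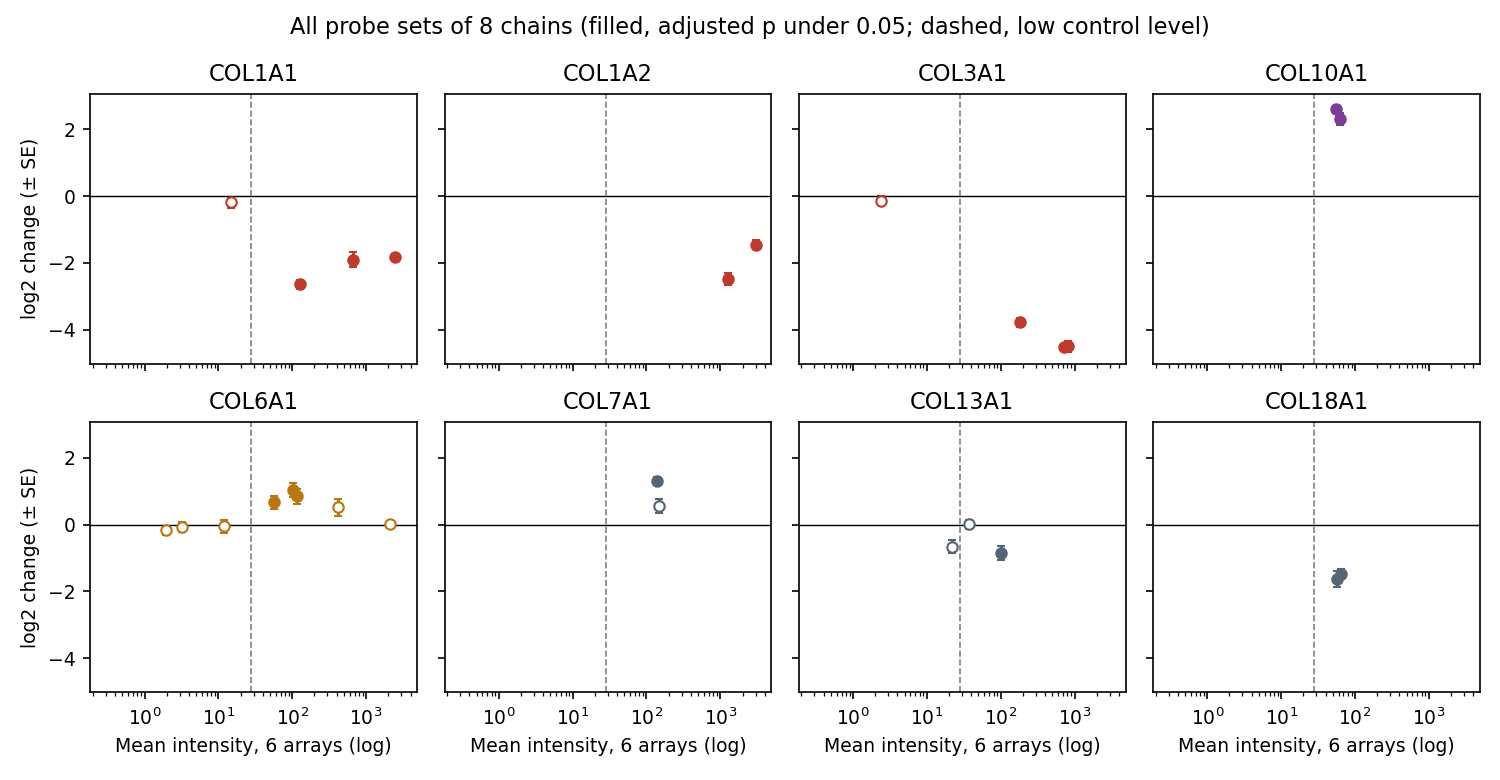
Log2 change with SE (vertical axis, 3 samples per group) against mean intensity over 6 arrays (horizontal log axis) for every probe set of 8 chains. Filled points passed an adjusted p of 0.05 and the dashed line is the dim level. Probe sets of COL3A1 and COL1A1 to the right of the line all lie at -1.83 or lower, whereas those of COL6A1 run from 0.01 to 1.03 to the right of the line.

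The remaining chains belong to smaller structural groups. COL18A1 and COL15A1 are multiplexins of basement membrane zones whose ends release endostatin-like fragments. COL18A1 had 122, 94.6 and 93.1 in control and 28.0, 26.7 and 23.0 in RASv12 cells, where 2 of 3 values were dim (-1.47 ± 0.15, adjusted p = 6.5e-04). COL15A1 had 51.7, 29.2 and 47.0 in control and 2.09, 8.04 and 5.82 in RASv12 cells, all of the latter dim, at least 1.48-fold lower in RASv12 cells (-1.45 ± 0.17, adjusted p = 0.0011). Its change was -2.89 and -0.61 with pseudocounts of 1 and 64. Neither chain's groups overlapped, and both probe sets of COL18A1 fell. COL13A1, a membrane-spanning collagen of cell junctions, had 151, 137 and 121 in control and 85.9, 69.3 and 48.9 in RASv12 cells, a mean 2.00-fold lower (-0.86 ± 0.20, adjusted p = 0.020). Its other 2 probe sets did not pass and differed from each other. The change of 208535_x_at was -0.66 with groups apart (adjusted p = 0.0505). That of 211809_x_at, above the dim level on every array, was 0.005 (adjusted p = 0.99). The call of the brightest COL13A1 probe set ended without control replicate 1 (adjusted p = 0.065), control replicate 2 (0.060) or RASv12 replicate 2 (0.053).

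COL7A1 forms the anchoring fibrils that fix epidermis to dermis, and 1 of its 2 probe sets was called. On the one of higher mean, 204136_at, control values were 90.2, 101 and 169 and RASv12 values 181, 169 and 175, so that the lowest RASv12 value lay just above control replicate 3 (0.56 ± 0.21, adjusted p = 0.099). Without control replicate 3 that probe set was called, at 0.82 with adjusted p = 0.0056. On 217312_s_at the control values were 78.4, 72.8 and 67.9 and the RASv12 values 211, 203 and 189. These lay well apart, a mean 2.75-fold higher in RASv12 cells (1.32 ± 0.09, adjusted p = 1.6e-04). The mean of both probe sets was called higher (0.94, adjusted p = 9.4e-04).

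Across all 73 probe sets 29 fell, 7 rose and 37 did not pass, against 13.0% and 11.3% of all probe sets that fell and rose. Of the 22 chains with more than 1 probe set, 9 had all of them called in the same direction, 7 had called and uncalled probe sets, 6 had none called and 0 had calls in both directions. Such counts were not made over all genes, so whether collagen probe sets agree more than others was not tested. Of the 37 probe sets that did not pass, several measured chains that fell elsewhere, such as the dim ones of COL1A1 and COL3A1.

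Chains that enter the same molecules were set against each other within each array, as a log2 difference between their brightest probe sets. A change in this difference means that the brightest probe sets changed by unequal amounts, and says nothing of which chain is more abundant. Probe sets of the same chain also differed, such as those of COL1A2 (-1.45 and -2.48). COL5A1 minus COL5A2 was -1.58, -1.40 and -1.57 in control and -0.68, -0.91 and -0.75 in RASv12 cells, a change of 0.73 with no overlap. COL6A1 minus COL6A2 was 0.82, 0.53 and 0.61 in control and 0.99, 1.20 and 1.04 in RASv12 cells, a change of 0.42 with no overlap. Each had an exact two-sided permutation p = 0.1, the smallest that 3 samples against 3 allow, and 0.25 after Benjamini-Hochberg adjustment over 5 pairs. The other pairs overlapped between groups. COL1A1 minus COL1A2 changed by -0.37 (exact p = 0.2), a direction that turned to 0.33 with the mean of all probe sets. COL4A1 minus COL4A2 changed by 0.14 (exact p = 0.5) and COL6A1 minus COL6A3 by 0.19 (exact p = 0.3).

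**Figure D4:**
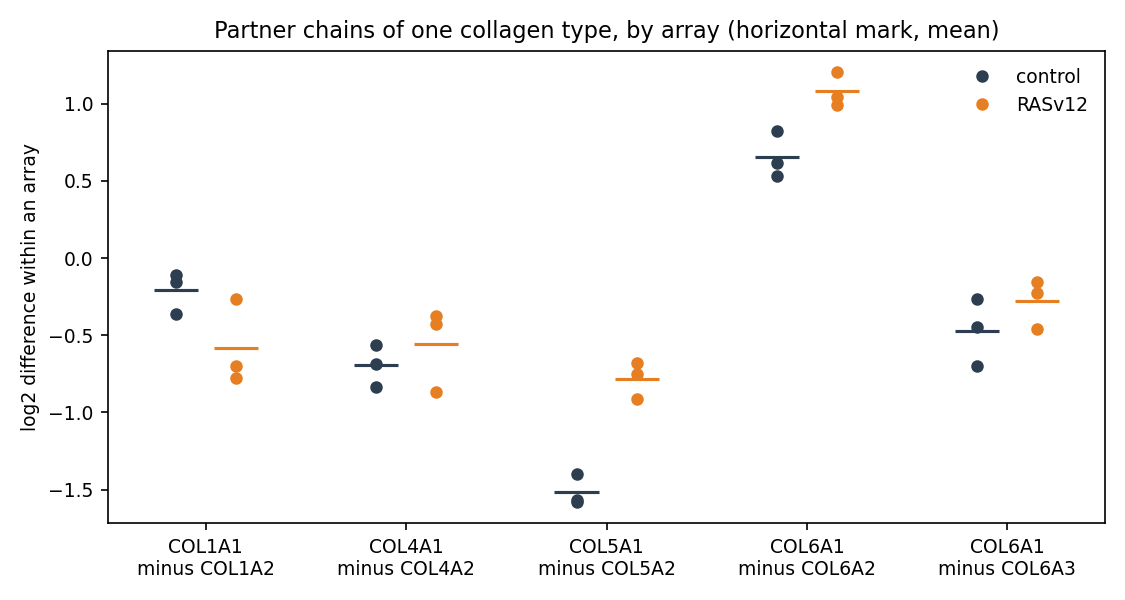
Log2 difference between partner chains within each array (vertical axis), with 1 point per sample and a bar at the group mean, for 5 pairs along the horizontal axis. COL5A1 minus COL5A2 and COL6A1 minus COL6A2 are higher in all 3 RASv12 samples than in any control sample, and the other 3 pairs overlap.

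Genes that make, assemble, crosslink, break down, bind or regulate collagen moved in both directions, and calls are over all genes, of which 13.8% rose and 15.3% fell. Of 15 genes for hydroxylation and folding, 4 rose, 5 fell and 6 did not pass (median -0.12). PLOD2, the lysyl hydroxylase that prepares telopeptides for crosslinking, rose by 2.30, and the prolyl hydroxylase subunits P4HA2 and P4HA1 rose by 0.84 and 0.63. The prolyl 3-hydroxylase P3H2 fell by 1.82 and SERPINH1, the chaperone that escorts folded procollagen, fell by 1.19. With scaling to the hybridization controls 5 of this list rose and 3 fell, at a median of 0.21, and the medians of the propeptide and breakdown lists below became -0.12 and 0.38. Of 11 genes for propeptide processing and fibril assembly, 5 fell and none rose (median -0.30), led by DCN (-3.28), a proteoglycan that coats fibrils, with LUM (-1.88) and the proteinase enhancer PCOLCE (-1.16). All 3 measured crosslinking genes fell, LOXL1 (-3.34), LOX (-2.31) and LOXL2 (-0.78), the lysyl oxidases that join collagen molecules covalently.

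Of 8 genes for collagen breakdown and uptake, 3 rose, 1 fell and 4 did not pass (median 0.12), shares to be read against the same 13.8% and 15.3%. The interstitial collagenase MMP1 rose by 1.68, the membrane-bound collagenase MMP14 by 1.24 and cathepsin K (CTSK) by 0.72, while the collagen uptake receptor MRC2 fell by 0.96. Of 5 collagen receptors the integrin subunit ITGA2 rose by 1.27, the receptor kinase DDR2 fell by 1.24 and 3 did not pass. Of 11 regulators 3 rose, 3 fell and 5 did not pass. The regulators that fell were SMAD3 (-2.46), which carries the TGF-beta signal to collagen genes, the matricellular protein CCN2 (-1.45) and the receptor TGFBR2 (-0.57). Those that rose were the inhibitory SMAD7 (1.11), the ligand TGFB1 (0.90) and the receptor TGFBR1 (0.37), which was dim on all arrays. Single calls in a list of 5 or 8 genes lie near the all-gene shares. With scaling to the hybridization controls the falls of TGFBR2 and ADAMTS2 were not called, and MMP2 and ITGB1 were called higher.

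**Figure D5:**
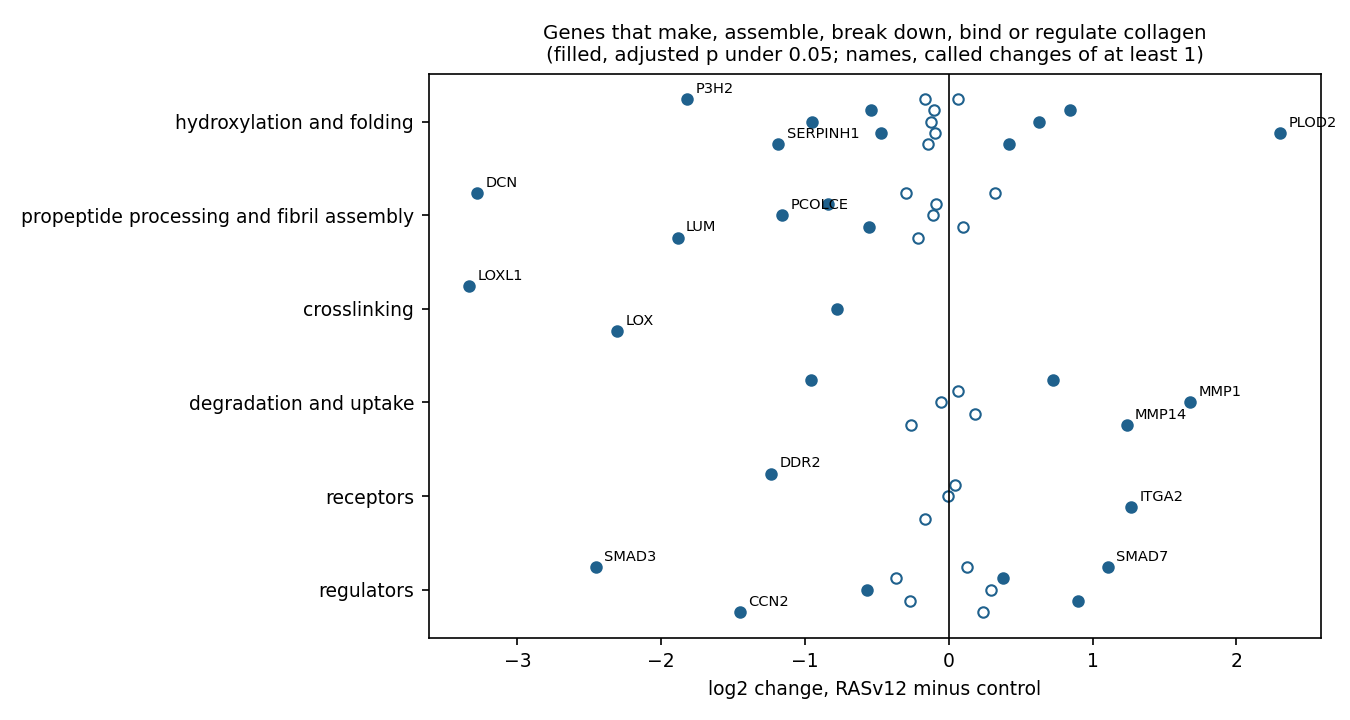
Log2 change (horizontal axis, RASv12 minus control, 3 samples per group) of genes in 6 lists around collagen, with 1 point per gene and the lists along the vertical axis; vertical offsets within a list only separate points. Filled points passed an adjusted p of 0.05. Crosslinking genes lie on the left only, and breakdown genes reach 1.68 (MMP1) on the right.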

How the data were processed

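Total RNA went through 2 rounds of amplification and was labelled with kits for whole-transcript arrays, per the labels' protocols. The authors deposited a linear signal intensity per probe set, summarised with MAS5 per the submitters' processing notes; its version is not given in the sources used here. Each array had a 2% trimmed mean of 100.0, so it was scaled before deposit. Probe sets were named through the array's deposited annotation, updated by gene identifier to the RefSeq gene table (GRCh38.p14). The table held 22283 probe sets, 68 of them controls, which were left out.

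A pseudocount of 16 was added before taking log2, so changes of dim chains are understated, and the arrays were quantile normalized because their medians ran from 5.40 to 5.63. Groups of 3 samples were compared with limma 3.58.1 (R 4.3.3). For counts of chains the probe set of highest mean stood for a gene, and p-values of genes or of probe sets were adjusted over the whole array (Benjamini-Hochberg). Single probe sets that represent a gene carry the adjusted p over genes and others that over probe sets. Errors of log2 changes are standard errors. Folds are ratios of mean intensities, and where all 3 arrays of a group were dim, a lower bound against the dim level. Values in every sample are given for each called chain, and other members by range. Alternatives were the scaling, pseudocount, filter, replicate block, left-out samples and averaged probe sets. The procedure was tested on simulated data. The number of arrays limits the precision. The members, classes and lists were chosen with earlier results of these data known.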

Additional observations from a re-analysis of the deposited data

How the results depend on the processing

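The number of chains that fell was 13 to 15 under every alternative run, against 15, and 24 to 30 probe sets fell, against 29. Members changed in some runs. COL8A1 was called lower without control replicate 1, and COL19A1 without control replicate 2, each in place of COL13A1. COL8A2 was called lower with averaged probe sets, in place of COL14A1. Chains called higher numbered 4 with scaling to the hybridization controls and 1 without the dimmest 25% of probe sets, against 2, since COL6A1 and COL7A1 were added by the former and COL21A1 was removed by the latter. Samples with the same replicate number did not deviate together (correlations of their deviations from group means of -0.23, -0.03 and -0.07). This check of 3 samples a group cannot tell whether same-numbered samples share a culture or batch. With the replicate block 4 probe sets rose, against 7, and 14 chains fell, against 15, as COL6A2 (adjusted p = 0.059) was not called. Leaving out 1 sample at a time gave 14 to 15 chains lower and 2 to 3 higher, and 25 to 30 probe sets lower and 5 to 7 higher. The fibrillar median was -1.33 with scaling to the hybridization controls, -1.775 with a pseudocount of 1 and -1.27 with 64. In the same order the basement membrane median was -0.51, -0.78 and -0.39, and that of the other chains was -0.92, -1.46 and -0.60. The FACIT median was -0.30 with a pseudocount of 1, and the beaded-filament median 0.18 with that scaling. Without the dimmest 25% of probe sets, which left fewer chains, the basement membrane median was -1.28 (5 chains) and the FACIT median -0.515 (4 chains). Without the dimmest 50% the medians were -1.57 for basement membrane (4 chains), -1.31 for FACIT (1 chain), 1.15 for network (2 chains) and -0.86 for the others (3 chains). COL6A1, near 0, ran from -0.049 to 0.12 when 1 sample was left out, and was below 0 without control replicates 2 and 3 (-0.049 and -0.039) or RASv12 replicates 2 and 3 (-0.015 and -0.0011), and COL6A3 was at 0.18 with scaling to the hybridization controls. COL1A1 minus COL1A2 was 0.33 with the mean of a gene's probe sets, and COL7A1 passed without the dimmest 50% (adjusted p = 0.045). With a pseudocount of 64 COL11A1 was at -1.09, COL18A1 at -0.87 and COL4A5 at -0.79, all still called, and COL13A1 was at -0.50 with the mean of its probe sets. The cause of a change was not tested. Dim signal limits COL2A1, COL4A3, COL4A4, COL8A1, COL9A1, COL9A3, COL14A1, COL19A1 and COL21A1, whose 6 arrays lay within the low bacterial controls.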

Other observations

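Several collagen genes are neighbours on their chromosome in the RefSeq table, with no other protein-coding gene between them. Of 6 such pairs, both members fell in 2, COL4A1 with COL4A2 (-1.87 and -2.01) and COL3A1 with COL5A2 (-4.49 and -2.35). In 2 pairs 1 member fell and the other did not pass, COL6A2 (-0.42) beside COL6A1 (0.01) and COL4A5 (-1.28) beside COL4A6 (0.13). In the remaining pairs, COL4A3 with COL4A4 and COL9A1 with COL19A1, no member passed and all members were dim on every array. These pairs were listed after the values were seen, and no test was made of them.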
